A study of Homo sapiens with 8 samples.

Results

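The inhibitor of apoptosis proteins (IAPs), the apoptosome and the proteins that regulate both were followed through an AGO2 RIP-chip experiment by 9 genes: XIAP, BIRC2, BIRC3, BIRC5, BIRC6, APIP, APAF1, CASP9 and DIABLO, of 22439 genes named on the array. Every probe whose RefSeq accession belonged to 1 of these genes was taken, which gave 11 of the 58201 probes of the array. Of these, 9 probes of 7 genes were well above background on all 8 arrays and were tested together with the other probes that passed this filter, 16808 in all. The remaining probes, those of BIRC6 and APAF1, entered only the fits without a filter or with a filter on the input arrays alone. They are described by their levels. The cells were A431, an established human line of cutaneous squamous cell carcinoma, transfected with 10 nM miR-NC (the negative control) or 10 nM miR-634 and lysed after 24 h. Both kinds of cells thus went through a transfection, and there was no untransfected group. RNA bound to AGO2 was taken by immunoprecipitation (RIP), and total RNA of the lysates served as the input, so that input and RIP of either kind of cells made 4 groups of 2 one-color arrays each. The sample labels name a normal rabbit IgG antibody for the input arrays, whereas the methods of the study describe total RNA. They are called input here.

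The 8 arrays were on 1 slide and were read in 1 scan. The duplicates were not stated to come from separate transfections, so that p-values measure only the spread between these arrays, which may be technical. With 2 arrays in a group, their number sets the precision. The share of probes well above background was 43.3% to 43.6% on the input arrays. For the RIP it was 30.9% and 31.8% with miR-NC and 37.5% on both arrays with miR-634. The 75th percentile of the intensity was 2674 to 2949 for input, 714 and 670 for the miR-NC RIP, and 1375 and 1329 for the miR-634 RIP. All 10 squamous epithelial marker genes looked at, among them KRT5, KRT14 and EGFR, were well above background on all 8 arrays. Of 8 markers of immune, endothelial, fibroblast and melanocytic cells, 1 (CDH5) was. PMEL was well above background on 6 arrays and PTPRC and COL1A1 on 4 each, whereas CD3E, PECAM1, COL3A1 and MLANA were so on none.

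In the intrinsic pathway of apoptosis, cytochrome c released from mitochondria binds APAF1, which assembles into the apoptosome and activates the initiator caspase CASP9. XIAP blocks CASP9 and the executioner caspases directly, BIRC2 and BIRC3 act as ubiquitin ligases in TNF receptor signaling, and DIABLO (also called SMAC) leaves the mitochondrion to displace caspases from IAPs. APIP binds APAF1 and restrains the apoptosome, and is also an enzyme of methionine salvage. A microRNA loaded into AGO2 pairs with mRNAs mainly through its seed, so that an mRNA that is bound more often comes down with AGO2 in larger amounts.

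The microRNA added to the cells is shown because its seed, in capitals (bases 2 to 8 from the 5′ end), is the part that pairs with an mRNA:
hsa-miR-634: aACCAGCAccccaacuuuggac
This mature sequence of 22 bases is that of RefSeq (GRCh38.p14, chr17:66787132-66787153, plus strand), within the span of the gene PRKCA, and begins at base 61 of a hairpin of 97 bases. A perfect match to the seed in an mRNA reads UGCUGGU. None of the other mature microRNAs among the 2545 in the RefSeq table had the same seed. Transcript sequences of the 9 genes were not used here, so that sites for miR-634 in them were not searched for.

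Levels are given as the log2 intensity minus the 75th percentile of that array over the probes well above background on all arrays. They compare groups for 1 probe and not probes with each other. The order of RIP and input groups given below is that under this scaling. Enrichment is the difference between the log2 level in the RIP and that in the input, and the change of enrichment is its value in miR-634 cells less its value in miR-NC cells. All comparisons were made in 1 limma fit, and a probe was called at an adjusted p (Benjamini-Hochberg, over all tested probes) under 0.05.

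Of the 9 tested member probes, all but a probe of DIABLO were higher in the AGO2 RIP of miR-634-overexpressing cells than in that of miR-NC cells. For the change of enrichment, 8 of the 9 tested probes were called higher and 1 lower, against 24.9% higher and 43.5% lower over all tested probes. The genes were chosen with earlier results known, since the study had reported APIP, BIRC5 and XIAP as enriched with miR-634 on these same arrays. XIAP and DIABLO also count by more than 1 probe each. The counts are thus a description and not a test of the gene set. The median of the 9 probes was 1.0 on the log2 scale and that of all tested probes was -0.26. For the RIP change (miR-634 RIP minus miR-NC RIP), 8 probes were called higher and 1 lower, where 27.3% and 48.6% of all tested probes were called higher and lower, with medians of 0.96 and -0.24. The input moved the other way for some of the probes. For the input change (miR-634 input minus miR-NC input), 4 probes (BIRC2, BIRC3, BIRC5 and APIP) were called lower, none higher and 5 were not called. All 9 estimates were under 0, from -1.12 to -0.01, but the median of all tested probes was so too (-0.02). The estimate nearest to 0, of DIABLO A_33_P3330125, ran from -0.07 to 0.04 with 1 array left out. Over all tested probes, 9.83% were called lower and 8.42% higher in input. In a bulk lysate, fewer cells with a transcript and less of it per cell cannot be told apart.

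Within each kind of cell, the picture differed. In miR-NC cells, 1 of the 9 probes was called higher in the RIP than in the input, 3 were called lower and 5 were not called, against 36.3% higher and 41.1% lower of all tested probes. In miR-634 cells, 7 were called higher, 2 lower and none was left uncalled, against 35.8% higher and 46.7% lower. The median enrichment of the 9 probes was -0.18 with miR-NC and 1.03 with miR-634, and that of all tested probes was -0.06 and -0.15. These directions within a kind of cell rest on the scaling. With arrays scaled on 8 spike-in probes, all 9 probes were called lower in the RIP in miR-NC cells, 1 (APIP) was called higher and 5 lower in miR-634 cells, and the median enrichment of all tested probes was -2.64 and -1.63. In the change of enrichment, 8 of the 9 probes were called higher under either scaling, but with spike-in scaling so were 10664 of the 16808 tested probes, with 287 called lower.

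**Figure D1:**
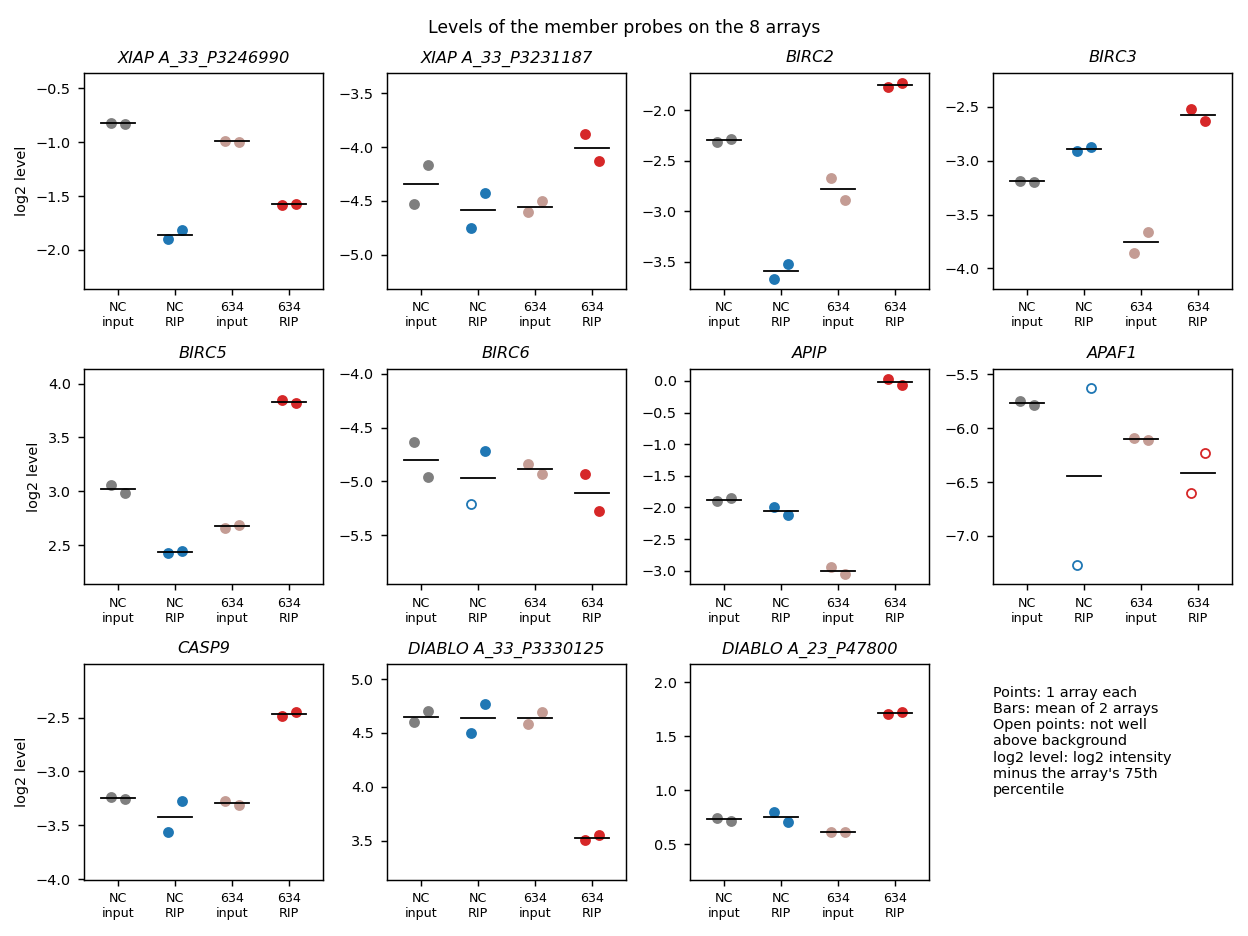
Levels of the 11 probes of the 9 genes on each array. The vertical axes give the log2 level (each panel has its own range), the horizontal axes the 4 groups, points are single arrays, bars are means of 2 arrays and open points mark arrays on which the probe was not well above background. In 7 of the 11 panels the miR-634 RIP points lie above those of every other group, whereas for DIABLO A_33_P3330125 they lie below.

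APIP, the APAF1-interacting protein, had the largest change among the 9 tested probes. The APIP probe (A_23_P2066, NM_015957) had log2 levels of -1.90 and -1.85 in the miR-NC input, -2.0 and -2.12 in the miR-NC RIP, -2.95 and -3.06 in the miR-634 input, and 0.04 and -0.07 in the miR-634 RIP. The same arrays had intensities of 779 and 793, 179 and 155, 383 and 321, and 1411 and 1267. Levels were thus highest in the miR-634 RIP and lowest in the miR-634 input, and neither group overlapped any other, while the miR-NC input and the miR-NC RIP lay next to each other. The enrichment of APIP was -0.18 with miR-NC and 2.98 with miR-634 (limma SE 0.07 for each, 2 arrays in a group). In miR-634 cells it was above that of 99.1% of the tested probes. From miR-NC to miR-634 cells the enrichment rose 8.97-fold (3.17 on the log2 scale, SE 0.10, limma adjusted p = 2.35e-06), and 99.5% of the tested probes had a lower change. It came from both sides, since the input level fell by 1.12 on the log2 scale (adjusted p = 0.000767 by limma) and the RIP level rose by 2.04 (adjusted p = 1.48e-06 by limma). Only 0.149% of the tested probes had a lower input change than APIP.

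APAF1, the scaffold of the apoptosome that APIP binds, could not be followed into the RIP. The APAF1 probe (A_23_P36611, NM_181861) was well above background on all 4 input arrays and on none of the 4 RIP arrays. Its log2 levels were -5.74 and -5.78 in the miR-NC input and -6.09 and -6.11 in the miR-634 input, with intensities of 54.3, 52.1, 43.2 and 38.7. On the RIP arrays the intensity was 4.64 and 13.5 for miR-NC and 14.2 and 17.7 for miR-634, not well above background. The APAF1 level in the miR-634 input was at least 1.13-fold higher than in the miR-634 RIP, taking for each RIP array the higher of the probe's own signal and the dimmest signal well above background. No such bound above 1 could be set in miR-NC cells. In the fit without the filter, the input change of APAF1 was -0.34 (standard error 0.52, adjusted p = 0.754 by limma). This error pools the spread of all 4 groups, the RIP arrays not well above background included. The SD was 1.16 in the miR-NC RIP, beside 0.03 in the miR-NC input and 0.01 in the miR-634 input.

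CASP9, the caspase activated on the apoptosome, was higher in the miR-634 RIP, and its input change was not called. The CASP9 probe (A_23_P97309, NM_001229) had log2 levels of -3.24 and -3.26 in the miR-NC input, -3.57 and -3.28 in the miR-NC RIP, -3.27 and -3.31 in the miR-634 input, and -2.49 and -2.44 in the miR-634 RIP. Both miR-634 RIP arrays lay above the other 6, which formed a single range. With spike-in scaling the RIP of CASP9 was below the input with miR-NC (-2.76) and with miR-634 (-0.66). The enrichment rose 2.0-fold (1.0 on the log2 scale, SE 0.13, limma adjusted p = 0.000712). The input change was -0.04 (standard error 0.09, adjusted p = 0.797 by limma, not called) and the RIP change 0.96 (adjusted p = 0.000124 by limma). The miR-NC RIP arrays of CASP9 differed by more than those of the other groups, and its enrichment in miR-NC cells, not called at -0.17, was called lower at -0.32 when the second of these arrays was left out.

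XIAP, the IAP that inhibits caspases directly, had 2 probes for NM_001167, and the enrichment of both was higher with miR-634. Probe A_33_P3246990 had log2 levels of -0.82 and -0.83 in the miR-NC input, -1.90 and -1.82 in the miR-NC RIP, -0.99 and -1.0 in the miR-634 input, and -1.58 and -1.57 in the miR-634 RIP. Its 4 groups did not overlap, and XIAP was lower in the RIP than in the input in both kinds of cells by this probe. Its enrichment was -1.03 with miR-NC and -0.58 with miR-634 (limma SE 0.05 for each, 2 arrays in a group). The enrichment was 1.37-fold higher in miR-634 cells (0.45 on the log2 scale, SE 0.07, limma adjusted p = 0.00135), a change above that of 78.2% of the tested probes. The RIP change was 0.28 (adjusted p = 0.00187 by limma), and the input change of -0.17 was not called (adjusted p = 0.0594 by limma), although it was called when genes rather than probes were fitted with the brightest probe for each (adjusted p = 0.0419 by limma).

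The other XIAP probe, A_33_P3231187, was measured less precisely. Its log2 levels were -4.53 and -4.16 in the miR-NC input, -4.75 and -4.43 in the miR-NC RIP, -4.61 and -4.51 in the miR-634 input, and -3.88 and -4.13 in the miR-634 RIP. The miR-634 RIP arrays were the highest, by little over the miR-NC input array numbered 2, and the other 3 groups overlapped. With spike-in scaling the RIP was below the input by this probe with miR-NC (-2.83) and with miR-634 (-0.93). The change by this probe was 1.73-fold (0.79 on the log2 scale, SE 0.23, limma adjusted p = 0.0212), and the enrichment in miR-634 cells was 0.55 (adjusted p = 0.018 by limma), above 0 where that of the first probe was below 0. The change of enrichment was no longer called without the miR-NC input array numbered 2 (0.61), the miR-NC RIP array numbered 1 (0.63), the miR-634 input array numbered 1 (0.74) or the miR-634 RIP array numbered 1 (0.67), and the RIP change of 0.58 was lost without either of the RIP arrays numbered 1 (0.42 and 0.46). The enrichment in miR-634 cells was lost without either miR-634 input array (0.50 and 0.60) or the miR-634 RIP array numbered 1 (0.42).

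BIRC2 and BIRC3 encode cIAP1 and cIAP2, close relatives whose genes lie side by side, and their enrichment in miR-NC cells was below 0 for BIRC2 and above 0 for BIRC3 (-2.29 for BIRC3 with spike-in scaling). The BIRC2 probe (A_24_P115774, NM_001166) had log2 levels of -2.31 and -2.28 in the miR-NC input, -3.67 and -3.52 in the miR-NC RIP, -2.67 and -2.89 in the miR-634 input, and -1.77 and -1.73 in the miR-634 RIP. Input and RIP stood in opposite order in the 2 kinds of cells, with the miR-NC RIP the lowest and the miR-634 RIP the highest of 4 groups that did not overlap. This order rested on the scaling. With spike-in scaling the RIP of BIRC2 was called lower than the input with miR-NC (-3.88) and with miR-634 (-0.45). BIRC2 had an enrichment of -1.29 ± 0.08 with miR-NC, where 3.86% of the tested probes were lower, and of 1.03 ± 0.18 with miR-634 (SD, n = 2 each). This 5.0-fold change (2.32 on the log2 scale, SE 0.12, limma adjusted p = 1.34e-05) was the second largest of the 9 probes, with a RIP change of 1.84 (adjusted p = 4.8e-06 by limma). The input level fell by 0.48 on the log2 scale (adjusted p = 0.0143 by limma). This call was lost without either miR-NC input array (-0.50 and -0.47) or the miR-634 input array numbered 2 (-0.38).

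The BIRC3 probe (A_23_P98350, NM_001165) had log2 levels of -3.19 and -3.19 in the miR-NC input, -2.91 and -2.87 in the miR-NC RIP, -3.85 and -3.66 in the miR-634 input, and -2.52 and -2.63 in the miR-634 RIP. The RIP arrays lay above the input arrays in both kinds of cells, and the 4 groups did not overlap. With spike-in scaling the enrichment was below 0 with miR-NC (-2.29) and with miR-634 (-0.30, not called). BIRC3 was the only member called higher in the RIP in miR-NC cells, with an enrichment of 0.30 ± 0.03 (SD, n = 2, limma adjusted p = 0.0101), and it reached 1.18 ± 0.21 (SD, n = 2) with miR-634. That was a change of 1.85-fold (0.88 on the log2 scale, SE 0.11, limma adjusted p = 0.000482). The input change was -0.57 (adjusted p = 0.00584 by limma) and the RIP change 0.32 (adjusted p = 0.00817 by limma). Which of them was larger turned with the scaling, since they were -0.81 and 1.18 with spike-in scaling and both 0.55 in size with centered contrasts.

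BIRC5 encodes survivin, which serves in the chromosomal passenger complex during mitosis besides its part in apoptosis. Its probe (A_23_P118815, NM_001012271), the only one of the 11 printed in several spots, had log2 levels of 3.06 and 2.98 in the miR-NC input, 2.43 and 2.44 in the miR-NC RIP, 2.66 and 2.69 in the miR-634 input, and 3.85 and 3.81 in the miR-634 RIP. The 4 groups did not overlap, and the RIP was below the input in miR-NC cells and above it in miR-634 cells. With spike-in scaling the enrichment was below 0 with miR-NC (-3.17) and with miR-634 (-0.32, not called). The enrichment was -0.59 ± 0.07 with miR-NC and 1.16 ± 0.04 with miR-634 (SD, n = 2 each), which differed 3.35-fold (1.75 on the log2 scale, SE 0.07, limma adjusted p = 5.08e-06). The RIP change was 1.40 (adjusted p = 1.65e-06 by limma), and the input level fell by 0.35 on the log2 scale (adjusted p = 0.00717 by limma). The fall in input was not called without the miR-NC input array numbered 1 (-0.31) or the miR-634 input array numbered 1 (-0.34).

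BIRC6, a very large IAP that also conjugates ubiquitin, gave no clear difference between the groups. Its probe (A_33_P3314902, NM_016252) was well above background on 7 of the 8 arrays and missed the filter through the miR-NC RIP array numbered 1. The log2 levels were -4.64 and -4.96 in the miR-NC input, -5.21 and -4.72 in the miR-NC RIP, -4.84 and -4.93 in the miR-634 input, and -4.93 and -5.27 in the miR-634 RIP. The 4 groups overlapped or lay next to each other. In the fit without the filter, the change of enrichment of BIRC6 was -0.05 (SE 0.31, limma adjusted p = 0.9), an error that would not separate a change of the size seen for XIAP from 0.

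DIABLO, the IAP antagonist, had 2 probes that moved in opposite directions. Probe A_23_P47800 (NM_019887) had log2 levels of 0.74 and 0.72 in the miR-NC input, 0.79 and 0.70 in the miR-NC RIP, 0.62 and 0.61 in the miR-634 input, and 1.71 and 1.72 in the miR-634 RIP. Probe A_33_P3330125 (NM_001278302) had 4.60 and 4.71 in the miR-NC input, 4.50 and 4.77 in the miR-NC RIP, 4.58 and 4.70 in the miR-634 input, and 3.50 and 3.55 in the miR-634 RIP. The miR-634 RIP was thus the highest group by the probe for NM_019887 and the lowest by the probe for NM_001278302, and the other groups lay together or close to each other for both. With spike-in scaling the enrichment by the probe for NM_019887 was below 0 with miR-NC (-2.57) and with miR-634 (-0.38, not called).

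For the probe of NM_019887, the enrichment rose 2.12-fold (1.09 on the log2 scale, SE 0.07, limma adjusted p = 3.73e-05), with an input change of -0.12 that was not called. For the probe of NM_001278302, the ratio of the enrichments was 0.468 (-1.10 on the log2 scale, SE 0.14, limma adjusted p = 0.000643), with an input change of -0.01. The intensities of the second probe in the RIP were 16150 and 18320 in miR-NC cells and 15570 and 15580 in miR-634 cells, so that its lower level came with the higher 75th percentile of the miR-634 RIP arrays. With spike-in scaling its change of enrichment was 0.007 and no longer called, while that of the other probe was 2.19. With the mean of the probes as 1 value for DIABLO, the change of enrichment was -0.0048. No single value is given for the gene.

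**Figure D2:**
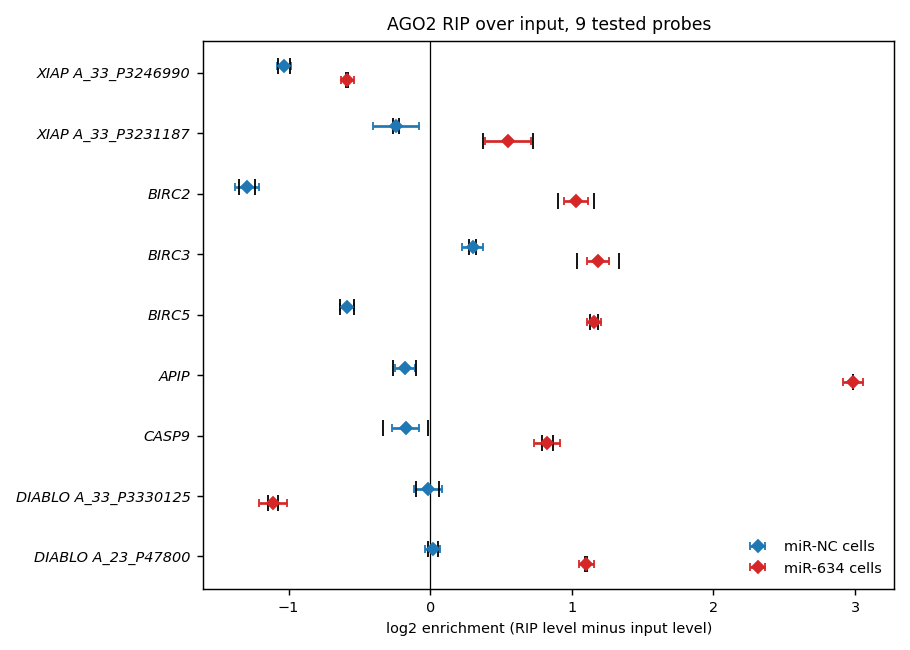
Enrichment of the 9 tested probes in miR-NC cells (blue) and miR-634 cells (red). The horizontal axis gives the enrichment (log2), diamonds are limma estimates with their standard errors and black ticks are the values of the array pairs numbered 1 and 2. The numbers did not pair the arrays, so the distance between ticks is no measure of precision. The red diamond lies to the right of the blue one for 8 probes, most for APIP at -0.18 and 2.98, and to the left for DIABLO A_33_P3330125.

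The members thus differed in how far input and RIP contributed. The change of enrichment of CASP9 and of DIABLO A_23_P47800 lay almost entirely in the RIP. APIP, BIRC2 and BIRC5 combined a lower input with a RIP level higher by more than 1 on the log2 scale. For BIRC3 both were called, and their order by size depended on the scaling.

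**Figure D3:**
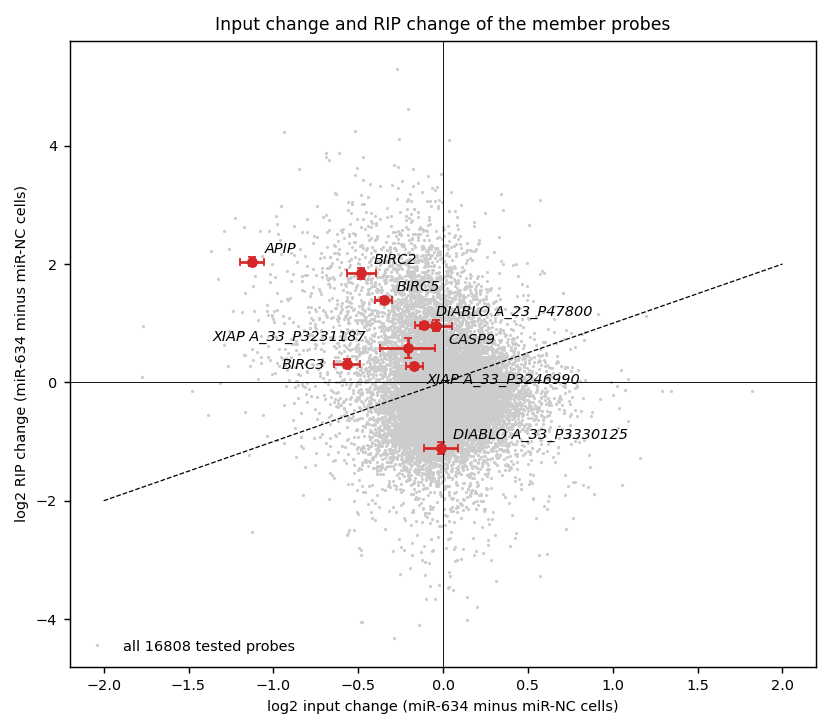
Input change against RIP change of the 9 tested probes (red, with standard errors) among all tested probes (grey). Both axes are log2 differences of miR-634 minus miR-NC cells, and probes above the dashed line were more enriched with miR-634. APIP stands at -1.12 and 2.04, far to the left in input, and DIABLO A_33_P3330125 is the only member below the line.

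In the rest of the pathway, more genes were called lower than higher in the change of enrichment, as over all tested probes. Of 34 further genes in 5 lists and a list of other IAPs, 28 were tested, by the brightest probe for each. Of these, 6 were called higher, 15 lower and 7 were not called in the change of enrichment, with a median of -0.43, beside 24.9% higher and 43.5% lower over all tested probes, and 5 were called higher and 16 lower in the RIP change, beside 27.3% and 48.6%. Nothing particular to these genes is read from the counts. In input, 5 were called higher and 3 lower, beside 8.42% and 9.83% over all tested probes. These input calls were not stable, since 0 were called higher and 0 lower without the filter, and 0 and 1 with spike-in scaling. Their median input change was 0.08, and it ran from 0.06 to 0.09 when a single input array was dropped. The direction of the falls depended on the scaling, because spike-in scaling moved the median change of enrichment of all tested probes from -0.26 to 0.84, and under it 20 of the 28 genes were called higher and none lower, with a median of 0.68. Under spike-in scaling the 28 genes still had a median below, and 8 of the 9 member probes had values (1.55 to 4.27) above, that of all tested probes. With contrasts centered on the median of all tested probes, 6 were called higher and 9 lower.

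Among the other IAP genes none could be tested: the NAIP probe was well above background on 4 arrays, that of BIRC7 on none, and no probe was named for BIRC8. Of the IAP antagonists, HTRA2, a mitochondrial protease that also binds IAPs, was below the input in the RIP of miR-NC cells (enrichment -0.53, called lower) and above it in miR-634 cells (0.31, called higher), with a change of enrichment of 0.84 (adjusted p = 0.000199 by limma), a RIP change of 1.27 and an input change of 0.43, so that its input rose where that of 4 members fell. The order of RIP and input given for HTRA2 is that of the main scaling. With spike-in scaling, none of the 28 tested genes was called higher in the RIP than in the input in miR-634 cells, and 26 were called lower. XAF1 and SEPTIN4 were not tested.

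Of the 12 other caspases, regulators and substrates, 2 were called higher in the change of enrichment, 7 lower and 3 were not called, beside the same 24.9% higher and 43.5% lower over all tested probes. CASP2, an initiator caspase, had a change of 0.91, and its second probe was also above 0 (0.63). CYCS, which encodes cytochrome c, was at -0.71 with a second probe at -0.69. The effector caspase CASP6 was at -0.49. FADD and CFLAR, an adaptor and an inhibitor of death receptor signaling, were at -0.24 and -0.41, and DFFA, the inhibitor of the DNase that caspases release, was at -0.45. CASP8, the initiator of the death receptor route, had a change of -0.45 that was not called, and was called lower in the RIP change (-0.84). CASP10 was at -1.34 by its brightest probe and at 1.82 by another, and PARP1 was at -0.04, not called, and 0.91, so that probes disagreed for these genes as for DIABLO.

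Of the 8 tested IAP partners in TNF and NF-kB signaling, 2 were called higher, 5 lower and 1 was not called, again beside 24.9% and 43.5% over all tested probes. RIPK1, the kinase that BIRC2 and BIRC3 ubiquitinate, was at 0.44, with an input change of -0.29, and the receptor TNFRSF1A was at 0.34. TRAF2, which recruits BIRC2 and BIRC3 to the receptor, was at -0.52, the adaptor TRADD at -0.59, RIPK2 at -0.75, the kinase MAP3K14 at -0.35 and TNFAIP3, a feedback inhibitor of NF-kB, at -0.84. The input change of MAP3K14 was 0.43 and that of TNFAIP3 0.51, both called higher.

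Of the partners of BIRC5 in the chromosomal passenger complex, the kinase AURKB was higher, with a change of enrichment of 1.08 (adjusted p = 0.000104 by limma) and an input change of -0.02 that was not called. The scaffold INCENP and CDCA8 were at -0.46 and -0.45, with input changes of 0.49 and -0.22. Of the enzymes that work beside APIP in methionine salvage, MTAP was called lower at -0.44, and MRI1, ENOPH1 and ADI1 were not called, with values between -0.14 and -0.12. ADI1 was called lower in input (-0.29), and ENOPH1 and ADI1 in the RIP change (-0.26 and -0.43).

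**Figure D4:**
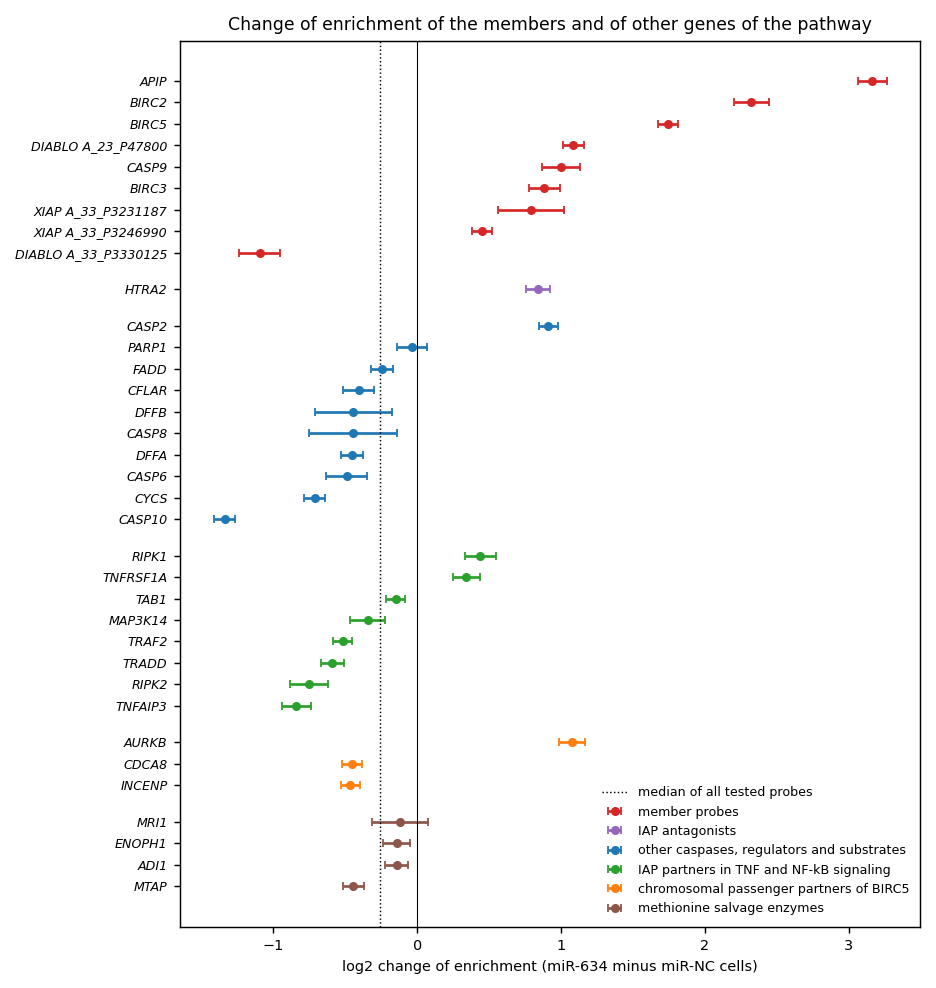
Change of enrichment of the 9 member probes and of other genes of the pathway, by list, with 2 of the 28 tested genes not drawn. The horizontal axis gives the log2 change of enrichment (miR-634 minus miR-NC cells) with its standard error, and the dotted line marks the median of all tested probes at -0.26. Of the member probes 8 lie to the right of 0, and most of the other genes lie to the left.

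The size of the change of enrichment depended on how the arrays were scaled, more than its direction did. Over all alternatives, it ran from 2.76 to 4.27 for APIP, from 1.79 to 3.42 for BIRC2, from 1.66 to 2.85 for BIRC5, from 0.69 to 2.10 for CASP9, from 0.59 to 1.99 for BIRC3 and from 0.41 to 1.55 for XIAP A_33_P3246990. The upper ends were those of spike-in scaling, under which 97.4% of the calls over all tested probes were higher, against 36.4% in the main setting and 54.4% with centered contrasts. For APIP, BIRC2, BIRC3, BIRC5, CASP9 and this XIAP probe, the change of enrichment stayed called higher under every alternative run.

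**Figure D5:**
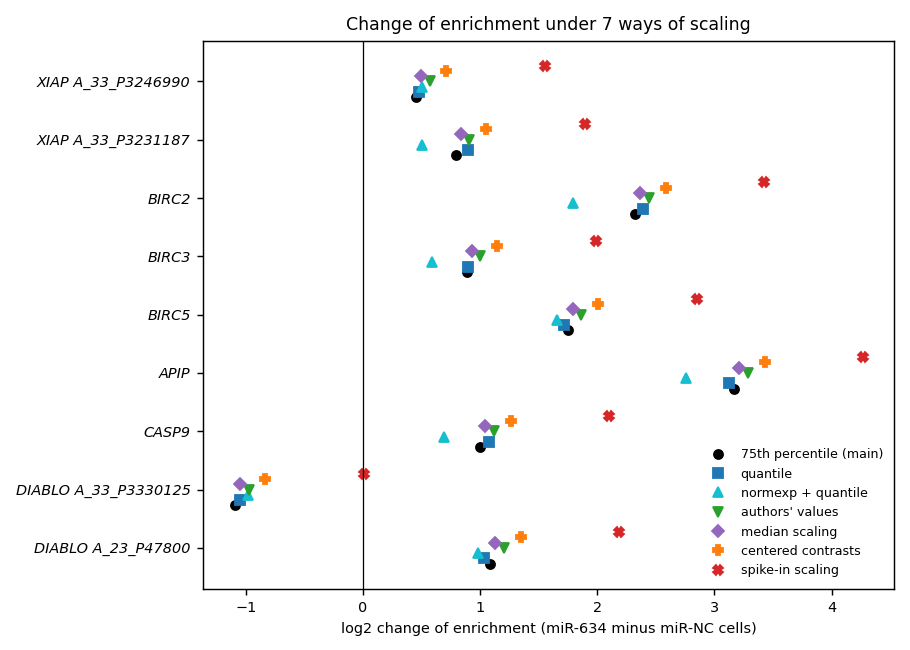
Change of enrichment of the 9 tested probes under 7 ways of scaling the arrays. The horizontal axis gives the log2 change of enrichment, and each symbol is 1 way of scaling. Spike-in scaling gives the highest value for every probe, and it places DIABLO A_33_P3330125 at 0.007 where the other settings place it below 0.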

How the data were processed

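The authors deposited spot intensities from Agilent Feature Extraction (12.0.1.1 in the file headers, 9.1 in the labels), with the local background subtracted and no normalization between arrays, and a table of processed log2 values, which equalled the scanner values scaled on the 75th percentile over all probes and centered on each probe's median (r = 1 for each array). Here, control spots and those marked as outliers were dropped, repeated spots were averaged, and the log2 values of an array were set relative to its 75th percentile over the 16813 probes (28.9%) well above background on all 8 arrays, of which 16808 had a value on every array. No spot was saturated. The files used here had no gene name column, so genes were matched through RefSeq accessions to the RefSeq gene table of GRCh38.p14 (31104 of 33080 probes with an accession). The array was annotated on another build, so gene coordinates are not given.

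All groups were fitted together with limma 3.58.1 in R 4.3.3 (4 group means, eBayes), with Benjamini-Hochberg adjustment over all tested probes and a threshold of 0.05. All probes of the 9 genes, the called genes of the pathway lists, and for APIP, BIRC5 and XIAP the 3 genes with the most similar levels are named, except for a few that are not reported here. The members and lists were chosen with earlier results of these data known. The script was tested on simulated data. The replicate numbers did not pair the arrays. The alternatives were normexp (offset 50) with quantile normalization, quantile normalization, the percentile over all probes, median scaling, spike-in scaling (8 probes), centered contrasts, the authors' processed log2 values, other filters, 1 value for each gene, an intensity trend, a replicate block and each array left out. All arrays were on 1 slide in 1 scan, so no slide block was fitted. Python 3.11.15 with pandas 2.3.3 and matplotlib 3.10.9 served for tables and plots.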

Additional observations from a re-analysis of the deposited data

Results flagged for a closer look

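For each of the 9 tested probes the enrichment in miR-634 cells differed from that in miR-NC cells in the test of the difference itself (limma, Benjamini-Hochberg adjustment over all tested probes). Most probes of the array did so too, with 24.9% of all tested probes called higher and 43.5% called lower. The change of enrichment was 3.17 for APIP, 2.32 for BIRC2, 1.75 for BIRC5, 1.0 for CASP9, 0.88 for BIRC3, 0.45 for XIAP A_33_P3246990, 0.79 for XIAP A_33_P3231187, 1.09 for DIABLO A_23_P47800 and -1.10 for DIABLO A_33_P3330125. In each case both array pairs, numbered 1 and 2, lay on the same side. The numbers did not pair the arrays, so these pairs are not replicates of the change. The fold change of enrichment was 8.46 and 9.51 in these pairs for APIP, 4.77 and 5.25 for BIRC2, and 0.507 and 0.432 for DIABLO A_33_P3330125. With spike-in scaling, the change of enrichment of DIABLO A_33_P3330125 was 0.007 on the log2 scale and not called.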

How the results depend on the processing

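Of the values of single probes under the alternatives, 881 kept their side of the threshold, 26 lost and 15 gained a call, and 13 changed sign with a call before or after. The 881 kept their direction too, except for some values that were not called in either setting. Spike-in scaling, which moved the median over all tested probes by more than 0.1 in every comparison, gave 0 probes higher and 9 lower for the enrichment in miR-NC cells, 1 higher and 5 lower in miR-634 cells, 0 lower for the RIP change and 0 lower for the change of enrichment. Under it the enrichment in miR-NC cells was -2.29 for BIRC3 and -2.57 for DIABLO A_23_P47800, the enrichment in miR-634 cells was -0.93 for XIAP A_33_P3231187, -0.45 for BIRC2, -0.30 for BIRC3, -0.32 for BIRC5, -0.66 for CASP9 and -0.38 for DIABLO A_23_P47800, and the change of enrichment of DIABLO A_33_P3330125 was 0.007. With the mean of the probes of a gene, 0 were lower in the enrichment in miR-634 cells, the RIP change and the change of enrichment. XIAP was then at -0.017 and DIABLO at -0.0040 in the enrichment in miR-634 cells, and DIABLO at -0.070 in the RIP change and -0.0048 in the change of enrichment, because opposed probes were averaged. The change of enrichment of XIAP A_33_P3231187 was not called with normexp (0.50, adjusted p = 0.0559 by limma) or without the filter (0.79, adjusted p = 0.0504 by limma). With 1 array left out it ran from 0.61 to 0.98. The input change of BIRC2 was not called with the percentile over all probes (-0.43, adjusted p = 0.0501 by limma), nor that of BIRC5 with spike-in scaling (-0.59, adjusted p = 0.0567 by limma). Without the filter 1 probe was called lower in input, and with 1 array left out 2 to 5 were, with 2 without the miR-NC input array numbered 1.

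Over all tested probes, 4189 were called higher and 7315 lower in the change of enrichment, 10664 and 287 with spike-in scaling, 5554 and 4653 with centered contrasts, and 4727 and 25298 of 58179 without the filter. In input, 1415 were called higher and 1652 lower, 24 and 1147 with spike-in scaling, 1206 and 795 with the percentile over all probes, 661 and 962 with the filter on the input arrays, 68 and 212 without the filter, and 320 and 551 without the miR-NC input array numbered 1.

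Deviations of arrays with the same number correlated between groups with r from -0.03 to 0.08, so the numbers were not taken to pair the arrays. With the replicate block, 4161 probes were called higher and 7321 lower in the change of enrichment, 8 of the 9 probes remained higher, and the enrichment of APIP in miR-NC cells (-0.18) became called.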

Other observations

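The genes whose levels over the 8 arrays were most like those of APIP, by the Euclidean distance between log2 levels centered on each probe's mean and among 10958 genes, were FUNDC2P2 (distance 0.280), ARPC5 (0.396) and FUNDC2 (0.404). FUNDC2P2 is a pseudogene of FUNDC2, so their probes may read the same transcripts. ARPC5, a subunit of the complex that branches actin filaments, had an input change of -1.37 and a RIP change of 2.22, against -1.12 and 2.04 for APIP. FUNDC2 had -1.07 and 2.14. The nearest genes were picked by these same levels, so the likeness of their changes, here and for BIRC5 and XIAP below, follows from the choice.

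For BIRC5 the nearest genes were DLG3 (0.144), YME1L1 (0.159) and AGA (0.162), with changes of enrichment from 1.60 to 1.64. For XIAP, by probe A_33_P3246990, DHRS9 (0.127) and VPS26A (0.128) were the nearest, with changes of enrichment of 0.37 and 0.52.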
